A study of Mus musculus with 10 samples.

Results

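The genes described here encode the mitochondrial respiratory chain and ATP synthase, measured in splenic CD4+ T cells of mice early in abdominal sepsis. They were chosen by gene symbol alone. Symbols that begin with Nduf stand for complex I and its assembly factors, Sdha to Sdhd for complex II, symbols that begin with Uqcr and Cyc1 for complex III, Cycs for cytochrome c, symbols that begin with Cox4, Cox5, Cox6, Cox7 or Cox8 for complex IV, and symbols that begin with Atp5 for complex V. The array held 92 such genes on 184 probe sets, out of 18194 genes that had a probe set annotated with a single symbol. Of these, 86 genes on 158 probe sets were bright enough to be tested, among 13073 genes tested in all. The 6 genes below the brightness limit were Ndufb1, Ndufa4l2, Cox6b2, Cox7a1, Cox7b2 and Cox8b. Cox7b, Ndufa11 and Ndufs6 had no probe set that named them alone and were not analysed here.

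The animals were C57Bl/6 mice aged 8 to 12 weeks. In 5 mice the cecum was exposed under halothane anaesthesia, tied off and punctured (cecal ligation and puncture, CLP), which releases gut bacteria into the abdomen. In 5 sham mice the cecum was exposed and handled under the same anaesthesia but left intact. CD4+ cells were enriched from each spleen 6 h later by removing other cells with magnetic beads, to about 91% per the series text, and each mouse had its own Affymetrix array, so the numbers of replicates are 5 and 5 mice.

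The respiratory chain passes electrons from NADH (complex I) and succinate (complex II) through complex III and cytochrome c to oxygen at complex IV, and the proton gradient that results drives ATP synthase, complex V. T cells rest mainly on this route and expand their mitochondria when activated, and impaired mitochondrial respiration is a known feature of immune cells in sepsis. Nearly all of the subunits are encoded in the nucleus, and many of their promoters are bound by the transcription factors NRF1 and GABPA.

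Both factors have short recognition motifs, which were searched on both strands of the RefSeq promoter windows of assembly GRCm38.p6, from 250 bases before to 50 bases after each start. A window was given for 75 of the 92 genes, 80 windows in all. The NRF1-type motif, GCGCA and GCGC with any 1 base between them, occurred in 18 of the 80 windows (22.5%), against 8.84% of the windows of all genes tested and 4.6% of all windows in the table. The ETS-type motif CCGGAAG, to which GABPA binds, occurred in 19 windows (23.75%), against 15.73% and 8.86%. The narrower NRF1-type letters TGCGCATGC, which can overlap the first motif, occurred in 6 windows (7.5%, against 2.64% and 1.52%). Matches of the NRF1-type and ETS-type motifs can share at most 1 base, and 4 windows held both (5.0%, against 1.86% and 0.89%), those of Sdhd, Cox6a1, Atp5k and Atp5h. Complex V genes carried the NRF1-type motif in 6 of 15 genes with a window and complex IV genes in 1 of 12. A match describes these letters in these windows and nothing more. The 150 bases before the start are shown for 3 of these genes. Sdhd and Ndufaf4 were the genes with a tested probe set on which the CLP and sham arrays did not overlap. Cox6a1 was among the genes that differed most with the 18S ribosomal RNA signal of the arrays. Capitals mark the motifs on either strand.
Sdhd, chr9:50603850-50603999, minus strand: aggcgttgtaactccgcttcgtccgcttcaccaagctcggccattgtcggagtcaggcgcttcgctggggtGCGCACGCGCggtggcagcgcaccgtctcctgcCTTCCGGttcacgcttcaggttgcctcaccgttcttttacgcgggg
Ndufaf4, chr4:24897933-24898082, plus strand: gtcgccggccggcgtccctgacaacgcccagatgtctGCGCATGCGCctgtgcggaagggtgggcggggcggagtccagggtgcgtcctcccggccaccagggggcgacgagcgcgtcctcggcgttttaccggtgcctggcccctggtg
Cox6a1, chr5:115348959-115349108, minus strand: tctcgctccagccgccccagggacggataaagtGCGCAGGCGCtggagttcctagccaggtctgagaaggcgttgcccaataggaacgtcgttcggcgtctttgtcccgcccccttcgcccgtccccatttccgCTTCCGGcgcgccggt
The Sdhd sequence holds 1 NRF1-type and 1 ETS-type match, that of Ndufaf4 holds 1 NRF1-type match, and that of Cox6a1 holds 1 of each.

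The arrays themselves fell into 2 classes that the labels do not name. The signal of an 18S ribosomal RNA control lay between 194 and 268 on CLP 2, CLP 4, sham 2 and sham 4 and between 3134 and 5178 on the other 6 arrays. The ratio of the 3' to the 5' Gapdh control, a measure of how far copies were shortened, was 9.45 to 13.4 on the 4 arrays of low 18S signal and 20.7 to 29.5 on the other 6. The same ratio for beta-actin ran from 7.40 to 10.8 and from 6.25 to 11.7, so by it the classes overlapped. Array medians ran from 127.6 to 142.4. Markers of CD4+ T cells were present, with Cd4 at a log2 signal of 10.72 ± 0.12 (SD, n = 5) in CLP and 10.84 ± 0.29 in sham mice and Cd3e at 11.36 ± 0.10 and 11.48 ± 0.12. All 6 tested genes of the CD4+ T cell marker list had a lower mean in CLP mice, by -0.79 for Thy1, -0.69 for Cd5 and a median of -0.30, and none passed the test. Their summed signal ran from 11259 to 13733 in CLP and from 12905 to 19366 in sham mice. Markers of other cells were also present. The summed signal of 5 neutrophil markers ran from 2234 to 13656 in CLP and 3789 to 10741 in sham mice, and that of 4 erythroid markers from 1204 to 4698 and from 803 to 2256. No gene of the 9 marker lists passed the test, and the part of other cells in the values below was not tested. In such bulk RNA, fewer cells of a type and less RNA per cell cannot be told apart.

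Groups were compared with limma, a linear model with moderated variance, on log2 signals, and a gene was taken to change at a Benjamini-Hochberg adjusted p under 0.05 over all probe sets tested. No respiratory chain or ATP synthase gene rose and none fell in CLP mice. Among all genes tested 0.75% passed, 0.199% up and 0.551% down, so that a count of 0 among 86 genes is near the background and is not itself a result about these genes. Without adjustment, 2 of the 86 genes had a p under 0.05 (2.33%), Ndufb4 and Sdhd, where 11.8% of all genes tested did. Over probe sets, 3 of 158 did (1.90%, against 10.9%). No probe set of these genes passed after adjustment, against 0.703% of all probe sets.

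What the measurements do show is how small the differences were. With each gene by its brightest tested probe set, 44 of the 86 genes had a higher and 42 a lower mean in CLP mice. The median log2 difference, CLP minus sham, was 0.008, against 0.005 over all genes tested, and single genes ran from -0.19 for Ndufab1 to 0.40 for Ndufb4. The median size of the difference regardless of direction was 0.063 on the log2 scale, against 0.103 over all genes tested. By these probe sets only Ndufb4 differed by more than 1.2-fold (1 of 86 genes, 1.16%), against 15.8% of all genes tested. None differed by more than 1.5-fold (0, against 2.18%). Among the dimmer probe sets, that of Ndufaf4 differed by -0.47 (1.39-fold) and that of Atp5d by 0.29 (1.22-fold). The spread between mice was close to that elsewhere: the median within-group SD was 0.195 for these genes and 0.197 for all genes tested.

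**Figure D1:**
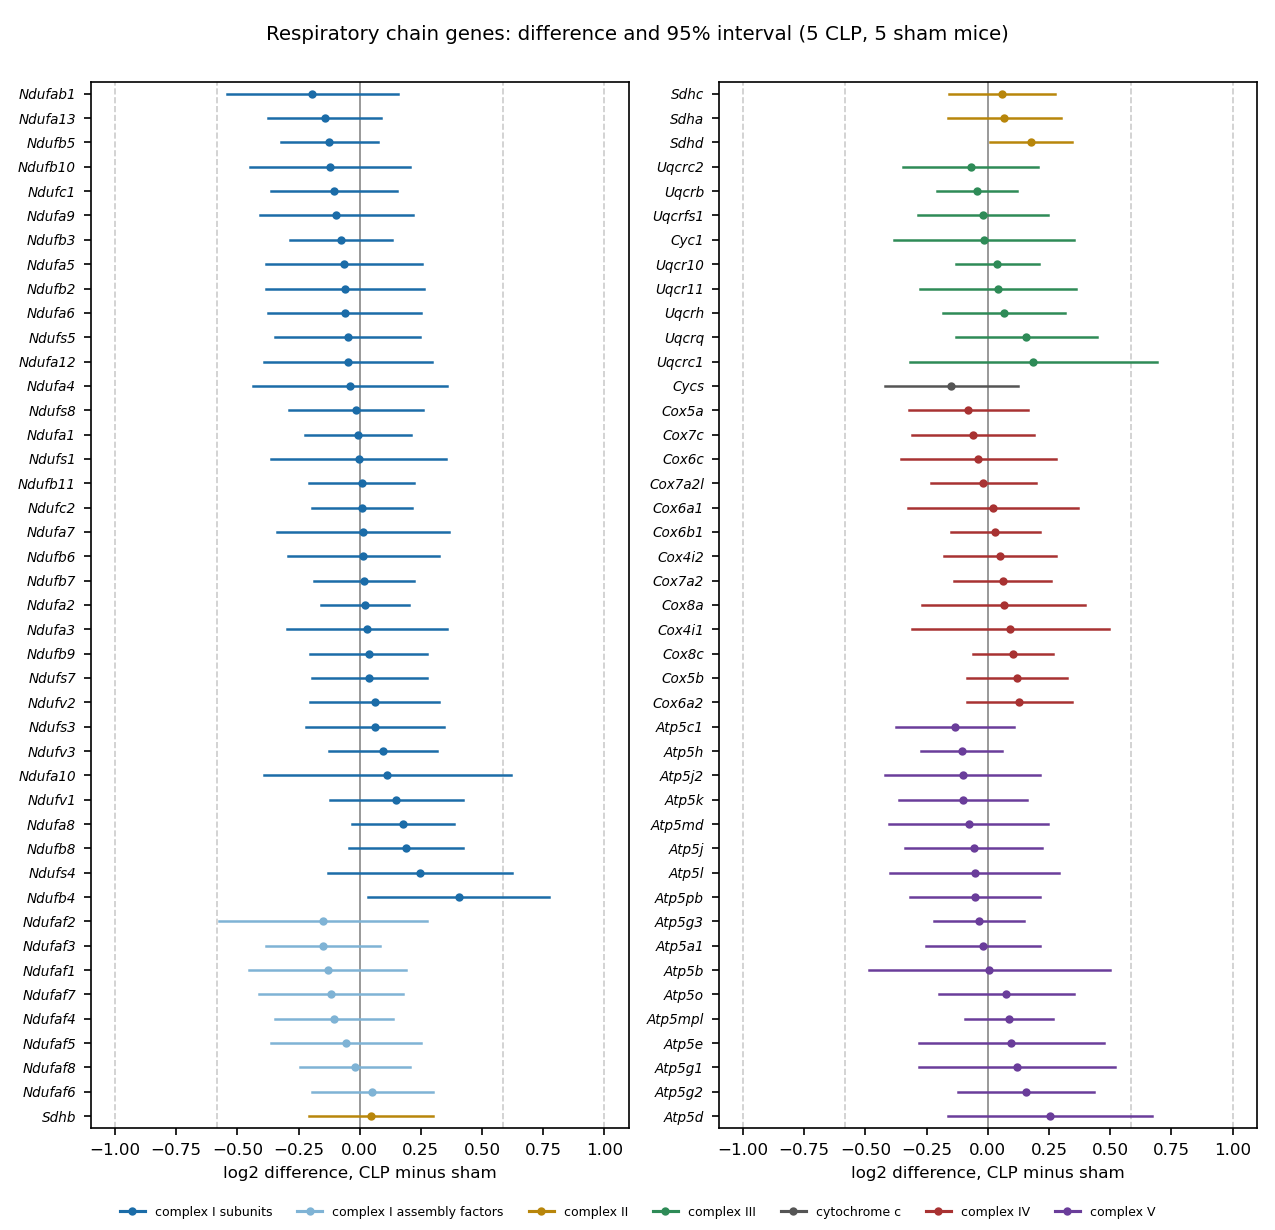
Log2 difference between CLP and sham mice (x axis) for each of the 86 tested genes (y axis, grouped and coloured by complex). Points are limma estimates, bars their 95% confidence intervals, the solid line is 0 and dashed lines mark 1.5-fold and 2-fold; 81 bars lie within 1.5-fold on both sides and all 86 within 2-fold.

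A p above the threshold does not show that a gene kept its level, so the intervals are given. For 81 of the 86 genes (94.2%) the 95% confidence interval of the difference lay wholly within 1.5-fold either way, against 79.8% of all genes tested. It lay within 2-fold for all 86, against 97.1%. The intervals that reached past 1.5-fold were those of Ndufb4 (0.04 to 0.77), Uqcrc1 (-0.32 to 0.69), Atp5d (-0.16 to 0.67), Ndufs4 (-0.13 to 0.62) and Ndufa10 (-0.39 to 0.62), each towards a higher level in CLP mice.

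**Figure D2:**
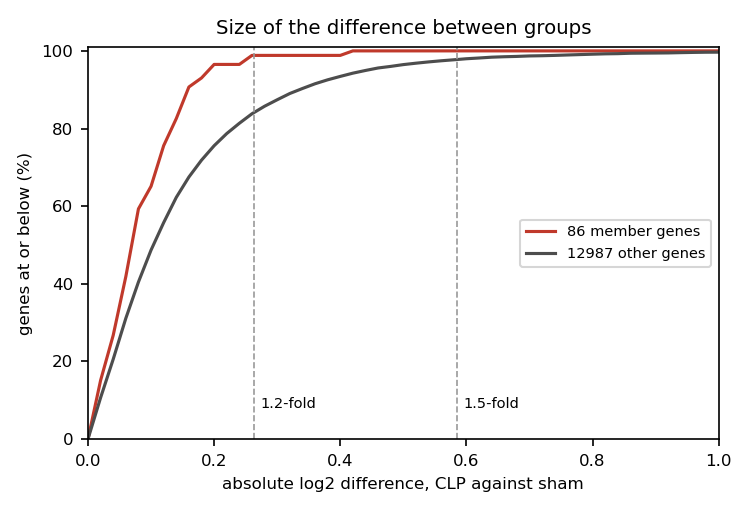
Percent of genes (y axis) whose log2 difference between CLP and sham mice, regardless of direction, was at or below the value on the x axis. The curve of the 86 respiratory chain and ATP synthase genes lies above that of the 12987 other tested genes, with 1.16% against 15.9% of genes beyond 1.2-fold.

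Signal strength differs between gene lists and bears on precision, so the genes were also set beside others of like brightness. Among genes with a mean log2 signal from 8 to 10, 0 of 15 respiratory chain genes and 22.2% of 5014 other genes differed by more than 1.2-fold. From 10 to 11 it was 0 of 22 against 21.0%, and from 11 to 12 it was 0 of 25 against 17.4%. At 12 and above, where 14 of the genes lay, it was 0 against 8.58%, and below 8 it was 1 of 10 against 8.91%. The genes share 10 arrays and can move together, so they do not count as independent observations.

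Complex I, the NADH dehydrogenase and the largest of the complexes, had 34 tested subunits with a median log2 difference of 0.009, 18 higher and 16 lower. The 6 tested core subunits, among them those that carry the flavin and the iron-sulfur clusters, had a median of 0.05. Ndufv1, which binds NADH and FMN, stood at 10.52 ± 0.24 (SD, n = 5) in CLP and 10.37 ± 0.15 in sham mice, a difference of 0.15 (95% interval -0.12 to 0.42). Ndufs1, the large iron-sulfur subunit, differed by -0.005 (-0.36 to 0.35). Ndufs3, Ndufs7, Ndufs8 and Ndufv2, the other core subunits, differed by -0.02 to 0.06. The other 28 tested subunits named by the Nduf prefix, accessory subunits that surround the core and Ndufa4, which is now placed in complex IV, had a median of 0.001, with 14 higher and 14 lower.

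By the probe set that represents each gene, the accessory subunit Ndufb4 had the largest difference of all 86 genes. Its log2 signal was 6.61, 6.85, 6.74, 7.56 and 6.84 in CLP mice 1 to 5 and 6.67, 6.41, 6.48, 6.28 and 6.73 in sham mice 1 to 5. CLP 4 stood above all other arrays, and CLP 1 lay below sham 1 and sham 5, so the groups overlapped. The difference was 0.40 ± 0.17 (SE, limma adjusted p = 0.386), 1.32-fold, on a probe set whose mean lay just above the brightness limit of 6.71. Ndufb4 was below that limit among the arrays of high 18S signal, and among those of low 18S signal, which include CLP 4, the difference was 0.86.

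Ndufs4, an accessory subunit needed for a stable NADH-binding module, was next among the complex I subunits at 0.25 ± 0.17 (SE, limma adjusted p = 0.729). Its signal was 9.37, 10.05, 9.46, 9.21 and 9.39 in CLP mice and 8.88, 9.35, 9.47, 9.51 and 9.05 in sham mice. CLP 2 was the highest array and the remaining 4 CLP arrays lay within the sham range, so the groups overlapped. At the other end, Ndufab1, the mitochondrial acyl carrier protein, stood at 9.57 ± 0.25 (SD, n = 5) against 9.76 ± 0.30, a difference of -0.19 (95% interval -0.54 to 0.16), while its other probe set differed by 0.15. Ndufa13, also known as GRIM-19, differed by -0.14 (-0.37 to 0.09).

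The Ndufaf genes encode assembly factors that build complex I and are not part of the finished enzyme. Of 8 tested, 1 had a higher and 7 a lower mean in CLP mice, with a median log2 difference of -0.11, and no gene passed the test. Of all genes tested, 51.2% had a higher mean in CLP mice. The median was -0.07 among the arrays of high and -0.15 among those of low 18S signal. Per gene the differences ran from -0.15 for Ndufaf2 and Ndufaf3 to 0.05 for Ndufaf6.

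Ndufaf4 had a probe set on which the groups did not overlap. On this probe set, the dimmer of its pair, the log2 signal was 9.73, 9.47, 9.24, 9.70 and 9.09 in CLP mice and 9.78, 10.05, 9.89, 9.99 and 9.89 in sham mice. Every CLP array lay below every sham array, although CLP 1 and CLP 4 came within 0.1 of sham 1. The difference was -0.47 ± 0.13 (SE, limma adjusted p = 0.134), and it was -0.50 among the arrays of high and -0.43 among those of low 18S signal. On the brighter probe set, by which the gene was represented, the signal was 10.48, 10.06, 9.91, 10.26 and 9.99 in CLP mice and 10.26, 10.25, 10.18, 10.32 and 10.21 in sham mice. There the highest array was CLP 1, the groups overlapped and the difference was -0.11 ± 0.11. Over all probe sets tested, 2.11% had all CLP arrays below all sham arrays, against 1 of the 158 probe sets of the respiratory chain and ATP synthase genes (Ndufaf4).

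Complex II, succinate dehydrogenase, is the enzyme that the respiratory chain shares with the citric acid cycle, and all 4 of its subunits had a higher mean in CLP mice on the probe set that represents the gene. Other probe sets of Sdha (-0.16 and 0.13) and Sdhc (-0.02) did not all share that sign. Sdhd, the small membrane anchor subunit, was the gene among the 86 whose groups did not overlap. Its log2 signal was 10.14, 10.14, 10.26, 10.07 and 10.15 in CLP mice and 10.04, 9.92, 10.03, 9.87 and 10.02 in sham mice. Every CLP array lay above every sham array, by 0.04 at the closest point, between CLP 4 and sham 1.

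The difference in Sdhd was 0.18 ± 0.08 (SE, limma adjusted p = 0.417), 1.13-fold, with a 95% interval of 0.01 to 0.34. It was 0.15 among the arrays of high and 0.21 among those of low 18S signal, and 0.08 on the other probe set of the gene. One of 86 genes with all CLP arrays above all sham arrays compares with 0.849% of all genes tested, and 0 of 86 with all CLP arrays below compares with 2.28%. Sdha, the flavoprotein that oxidises succinate, stood at 11.22 ± 0.17 (SD, n = 5) in CLP and 11.15 ± 0.14 in sham mice, a difference of 0.07 (-0.16 to 0.30). Sdhb, the iron-sulfur subunit, differed by 0.05 (-0.21 to 0.30) and Sdhc, the other anchor, by 0.06 (-0.16 to 0.28).

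Complex III, the cytochrome bc1 complex, had 9 tested genes with a median log2 difference of 0.04, 5 higher and 4 lower. The redox subunits were close to 0, with Uqcrfs1, the Rieske iron-sulfur protein, at -0.02 (95% interval -0.28 to 0.24) and Cyc1, cytochrome c1, at -0.02 (-0.38 to 0.35). Uqcrc1, a core subunit, had one of the wider intervals. Its signal was 9.59, 10.35, 9.45, 9.06 and 9.22 in CLP mice and 8.87, 9.37, 9.46, 9.31 and 9.74 in sham mice. CLP 2 stood above every other array, the groups overlapped, and the difference was 0.19 ± 0.23 (SE). Without CLP 2 the difference was -0.02.

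The other core subunit, Uqcrc2, differed by -0.07 (-0.34 to 0.21), Uqcrb by -0.04 (-0.21 to 0.12) and Uqcrq by 0.16 (-0.13 to 0.44). Cycs, the mobile electron carrier that also starts apoptosis when it leaves mitochondria, had a log2 signal of 12.18, 12.21, 11.92, 11.98 and 11.61 in CLP mice and 12.05, 12.35, 12.04, 12.21 and 12.00 in sham mice. CLP 5 was the lowest array and the groups overlapped. The difference was -0.15 ± 0.12 (SE, 95% interval -0.42 to 0.12), and its 4 tested probe sets ran from -0.15 to 0.21.

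Complex IV, cytochrome c oxidase, had 13 tested genes, 9 higher and 4 lower, with a median log2 difference of 0.05. Cox4i1, the ubiquitous regulatory subunit that binds ATP, stood at 11.31 ± 0.29 (SD, n = 5) in CLP and 11.21 ± 0.35 in sham mice, a difference of 0.09 (95% interval -0.31 to 0.49). Cox5b was at 0.12 (-0.08 to 0.32), Cox5a at -0.08 (-0.32 to 0.16) and Cox7c at -0.06 (-0.31 to 0.19). The catalytic subunits of this complex are encoded in mitochondrial DNA and are not among the genes chosen.

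Complex IV has pairs of isoforms of which one is found mainly in heart and muscle, lung, testis or other tissues. Of the 8 genes listed as such tissue isoforms (with Ndufa4l2 among them), 5 were below the brightness limit and 3 were tested. Cox6a2, the heart and muscle form, had a log2 signal of 6.96 ± 0.17 (SD, n = 5) in CLP and 6.83 ± 0.09 in sham mice, just above the limit. Its other probe set lay below the limit, at 6.30 in CLP and 6.42 in sham mice. Cox4i2, the lung form, was at 7.96 ± 0.14 and 7.91 ± 0.17, and Cox8c at 8.87 ± 0.06 and 8.77 ± 0.07. The differences were 0.13 (95% interval -0.09 to 0.34), 0.05 (-0.18 to 0.28) and 0.10 (-0.06 to 0.26). On the other tested probe set of Cox8c the difference was -0.01. The ubiquitous forms Cox6a1, Cox6b1, Cox7a2, Cox7a2l and Cox8a differed by -0.02 to 0.06.

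Complex V, the ATP synthase, had 17 tested genes, 7 higher and 10 lower, with a median log2 difference of -0.04. In its catalytic F1 head, Atp5b, the beta subunit that makes ATP, had a log2 signal of 10.23, 10.89, 10.08, 9.57 and 9.74 in CLP mice and 9.72, 10.26, 10.26, 10.30 and 9.95 in sham mice. CLP 2 was the highest and CLP 4 the lowest array, the sham arrays lay between them, and the difference was 0.01 ± 0.22 (SE, 95% interval -0.49 to 0.50). Atp5a1, the alpha subunit, differed by -0.02 (-0.25 to 0.21) and Atp5c1, the gamma subunit of the rotor, by -0.13 (-0.37 to 0.11).

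Atp5d, the delta subunit of the rotor stalk, had the largest positive difference of complex V, 0.25 ± 0.19 (SE, limma adjusted p = 0.768). Its signal was 11.84, 11.61, 11.82, 11.26 and 11.89 in CLP mice and 11.41, 10.999, 11.69, 11.10 and 11.96 in sham mice. The 3 lowest arrays, sham 2, sham 4 and CLP 4, were all of low 18S signal, and the groups overlapped. Of the 3 genes for the identical c subunit of the membrane ring, Atp5g1 differed by 0.12 (-0.28 to 0.52), Atp5g2 by 0.16 (-0.12 to 0.44) and Atp5g3 by -0.04 (-0.22 to 0.15). The 4 peripheral stalk genes had a median of -0.06, with Atp5h at -0.11 (-0.27 to 0.06), and the 5 small membrane subunits a median of -0.08.

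Averages over the genes differed more from mouse to mouse than between the groups. After each gene was centred on its own mean, the average over all 86 genes was 0.02, 0.19, -0.01, -0.08 and -0.11 in CLP mice 1 to 5 and -0.16, 0.02, -0.01, 0.06 and 0.07 in sham mice 1 to 5. The highest array was CLP 2 and the lowest sham 1, and the group means of 0.01 ± 0.12 and -0.01 ± 0.09 (SD, n = 5) overlapped. The average over all 13073 genes stayed between -0.05 and 0.03 on the same arrays. CLP 2 was highest in complex I subunits (0.22), complex III (0.27) and complex V (0.25).

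Of the 86 genes, 35 had their highest signal of all 10 arrays on CLP 2 (40.7%), against 17.2% of all genes tested. The lowest signal fell on sham 1 for 26 genes (30.2%, against 11.2%), on CLP 4 for 22 (25.6%, against 15.96%) and on CLP 5 for 21 (24.4%, against 13.2%). No gene was lowest on CLP 2 or on sham 3. CLP 2 also had the smallest 3' to 5' Gapdh ratio of the 10 arrays, 9.45. Its beta-actin ratio, 7.40, was above those of sham 3 (6.25) and CLP 5 (7.27). The part of these ratios in the values was not tested.

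**Figure D3:**
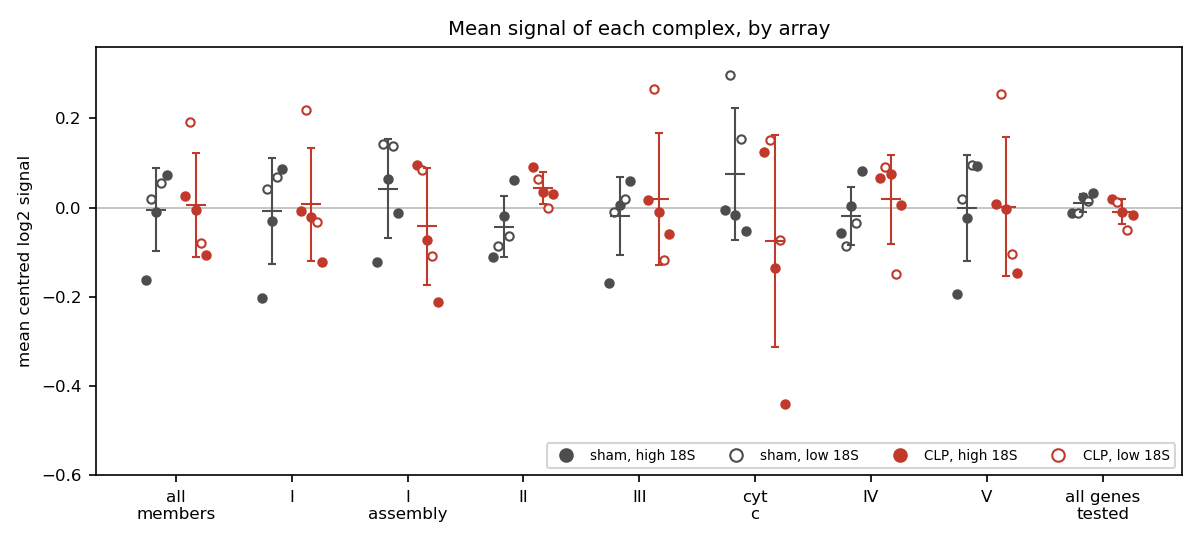
Mean of the centred log2 signal (y axis) over the genes of each complex (x axis), with 1 point per array, open for arrays of low and filled for arrays of high 18S ribosomal RNA signal, and bars for the group mean ± SD (n = 5). CLP 2, an open red point, lies highest over all members at 0.19 and sham 1 lowest at -0.16, while the group means of all members differ by less than the SD.

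More of these genes differed between the 18S classes of the arrays than between CLP and sham mice. Between the 4 arrays of low and the 6 of high 18S signal, averaged over the 2 surgical groups, the median log2 difference of the 86 genes was 0.09 (all genes tested, -0.001), and 58 of the 86 were higher in the arrays of low signal (all genes tested, 49.9%). In this contrast 25 genes differed by more than 1.2-fold (18 up and 7 down, 29.1%), against 28.7% of all genes tested, so that this count is near the background. All 4 arrays of low signal lay above all 6 others in 15 of the 86 genes (17.4%), against 4.14% of all genes tested, and below them in 3 (3.49%), against 7.33%. The arrays were split by a control signal and not by treatment, and these values are given as a description, with no test.

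The direction differed between complexes. The median was 0.14 in complex I subunits, 0.18 in complex V and 0.06 in complex III, and it was 0.01 in complex IV and -0.14 in complex II. Of the 15 genes whose arrays of low 18S signal all lay above the rest, 9 were complex I subunits, 4 were complex V genes, and the others were Sdhb and Uqcrc2. The 3 whose arrays all lay below were complex IV genes, Cox6a1, Cox7a2l and Cox8a. Each gene stands here by its brightest tested probe set, and others of the same gene could differ in sign. The other tested probe sets of Cox8a differed by 0.42 and -0.34. In complex II the other tested probe sets differed by 0.32 for Sdhd, 0.08 for Sdhc, and -0.19 and -0.43 for Sdha.

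Ndufa10, a complex I accessory subunit, showed the largest class difference, 0.74, on the probe set that represents it. Its log2 signal was 11.51 and 11.30 on CLP 2 and CLP 4 and 11.28 and 11.27 on sham 2 and sham 4, and on the other 6 arrays it ran from 10.46 to 10.79. The classes did not overlap, and between CLP and sham mice it differed by 0.10 within the high and 0.13 within the low class. On the dimmer probe set of Ndufa10 the class difference was 0.15, the classes overlapped, and CLP minus sham was -0.19. Cox6a1, whose promoter is shown above, went the other way by -0.45. Its signal was 11.92 and 11.71 on CLP 2 and CLP 4 and 11.73 and 11.78 on sham 2 and sham 4, and all other arrays lay between 12.04 and 12.44. Within the classes CLP and sham mice differed by -0.003 and 0.06. Atp5d (-0.53), Cyc1 (-0.46), Cox4i1 (-0.45) and Cox8a (-0.44) were likewise lower, and Ndufaf2 (0.48), Ndufa12 (0.45) and Atp5md (0.44) higher, in the arrays of low signal. Each class held both CLP and sham arrays, and the median CLP minus sham difference of the genes was 0.004 within the high and -0.006 within the low class.

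**Figure D4:**
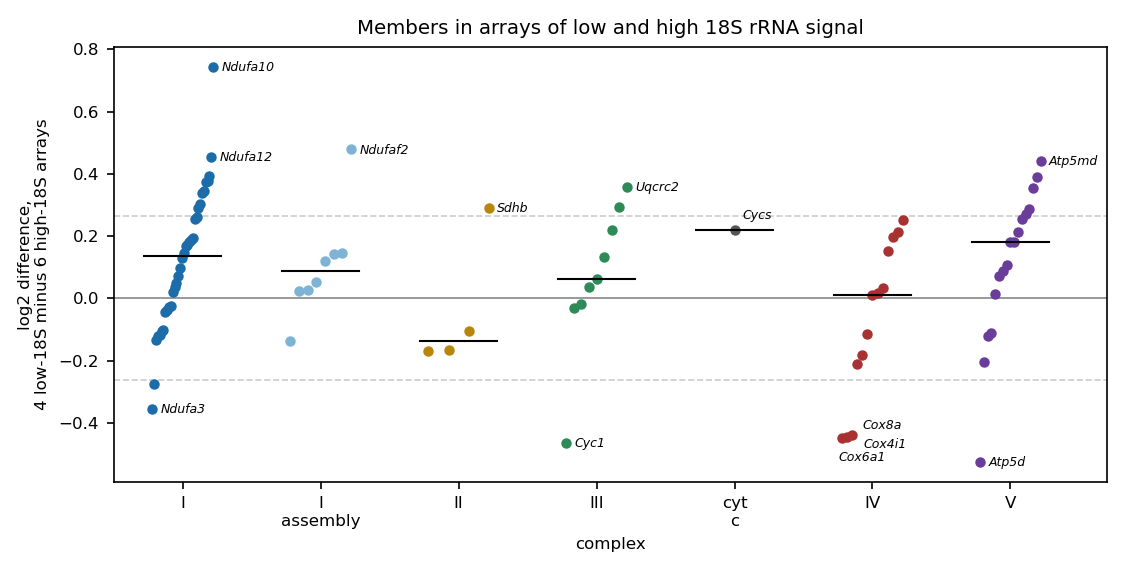
Log2 difference between the 4 arrays of low and the 6 of high 18S ribosomal RNA signal (y axis), averaged over CLP and sham mice, with 1 point per gene and a bar for the median of each complex (x axis); dashed lines mark 1.2-fold. Ndufa10 lies highest at 0.74 and Atp5d lowest at -0.53, and the complex I and V medians lie at 0.14 and 0.18.

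Several probe sets measured the same gene in 46 of the 86 genes. In 27 of them all tested probe sets had the same sign of difference, and in 0 did probe sets differ in sign with both beyond 0.3. The widest spreads were those of Ndufaf4 (-0.47 and -0.11), Cycs (-0.15 to 0.21) and Ndufab1 (-0.19 and 0.15). Of the 184 probe sets, 48 carry a suffix that marks probes that can also match other transcripts, related or not (29 x_at and 19 s_at). Many of these genes have processed pseudogenes that such probes can also detect. Without these probe sets 77 of the genes were still tested and 7 had the opposite sign; Ndufab1 (0.15) and Atp5c1 (0.14) were the 2 that moved by more than their SD between mice.

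Other mitochondrial genes, from lists drawn up by role, were set beside the complexes in the same fit, in which 0.75% of all genes passed. None of their genes passed in either direction. The citric acid cycle feeds NADH and succinate to the chain. Its list of 17 genes also held genes outside the cycle, the pyruvate dehydrogenase subunits Pdha1, Pdhb and Dlat and the cytosolic Mdh1. The 17 genes had a median log2 difference of -0.10, 12 of them lower. The 12 included Pdha1 (-0.18), Pdhb (-0.10), Dlat and Mdh1 (-0.01), so the median is not that of the cycle alone. The lowest p was that of Dlat (-0.25 ± 0.16, SE, limma adjusted p = 0.681). The 8 carriers, channels and the ATP synthase inhibitor had a median of -0.04, with Atpif1, that inhibitor, at 0.38 ± 0.29 (adjusted p = 0.778). ND5, a complex I subunit and the single gene of the mitochondrial genome measured, stood at 12.56 ± 0.05 (SD, n = 5) in CLP and 12.49 ± 0.09 in sham mice, a difference of 0.07 (-0.10 to 0.24).

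Among 27 tested assembly and insertion factors that are not named by the Nduf prefix, the median was -0.01 and 6 had an unadjusted p under 0.05 (22.2%, against 11.8% of all genes tested). Sdhaf1, which helps insert iron-sulfur clusters into Sdhb, had the lowest p. It stood at 10.36 ± 0.23 (SD, n = 5) in CLP and 9.69 ± 0.38 in sham mice, a difference of 0.67 ± 0.18 (SE, limma adjusted p = 0.120). It passed with the 18S class as a block (adjusted p = 0.0272), with array weights (0.0453) and with the replicate number as a block (0.0375), and over all 24 other settings its adjusted p ran from 0.0272 to 0.444. Timmdc1, a complex I assembly factor of the inner membrane, was at -0.60 ± 0.18 (adjusted p = 0.185) and passed without CLP 1 (-0.74, adjusted p = 0.0402; 0.0402 to 0.720 over all settings).

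The 16 tested regulators of mitochondrial biogenesis had a median of -0.11, with 12 lower, and 3 had an unadjusted p under 0.05 (18.75%, against 11.8% of all genes tested). Tfb1m, the methyltransferase of mitochondrial 12S ribosomal RNA, had the lowest p (-0.37 ± 0.10, SE, limma adjusted p = 0.117). Nrf1, which encodes the factor of the first motif above, differed by 0.12 (95% interval -0.18 to 0.43) and Gabpa by -0.19 (-0.42 to 0.03). Tfam, which packages mitochondrial DNA and starts its transcription, differed by -0.07 (-0.28 to 0.13).

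The 76 mitochondrial ribosomal proteins, which translate the subunits encoded in mitochondrial DNA, had a median of -0.06, with 49 lower and 27 higher. Of them, 8 had an unadjusted p under 0.05 (10.5%, near the 11.8% of all genes tested). Mrps25 had the lowest p (-0.54 ± 0.15, SE, limma adjusted p = 0.130) and passed without CLP 1 (-0.66, adjusted p = 0.0189; 0.0189 to 0.446 over all settings). With the 18S class as a block Mrpl32 (-0.46, adjusted p = 0.0383) and Mrps15 (-0.43, adjusted p = 0.0329) passed. Over all settings their adjusted p ran from 0.0383 to 0.674 and from 0.0329 to 0.898.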

How the data were processed

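RNA from CD4+ splenocytes of 5 CLP and 5 sham mice was amplified in 2 rounds, per the labels' protocols, which shortens the copies towards the 3' end. The authors deposited 1 linear intensity per probe set and array, and how it was background-corrected and scaled is not given in the sources used here. The source labels name an individual mouse for each array. CLP titles give replicates 1 to 5. Every sham title reads replicate 1 with a suffix from 1 to 5, which was used as the replicate number; the series text gives 5 biological replicates in each group.

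Arrays were brought to 1 median, intensities under the 25th percentile (70.4) were raised to it, and log2 was taken. Probe sets with a mean log2 at or above the 40th percentile (6.71) were tested, 27022 in all, with limma 3.58.1 in R 4.3.3 and Benjamini-Hochberg adjustment over all of them. Fits on simulated arrays with known changes were checked first. A gene is its brightest tested probe set with 1 symbol in the platform annotation. All 184 probe sets matched a RefSeq gene by Entrez identifier. A further 10 probe sets that name a member and other genes were left out. The number of arrays limits the precision, and levels of different probe sets are not compared.

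The genes, the lists and the 18S split at 1000 were chosen with earlier results of these data known. Named members were, in each complex, the 2 largest differences each way, and the core and catalytic subunits. The tissue isoforms, their ubiquitous forms, and genes with a tested probe set on which the groups did not overlap were also named. In each other list, it was the gene with the lowest p. Ndufa10, Ndufa12, Ndufb1, Ndufaf2, Ndufaf3, Ndufaf6, Atp5md, Timmdc1, Mrpl32, Mrps15, Nrf1, Gabpa and Tfam were named after their values were seen. Alternatives covered scaling, floor, filter, variance model, array weights, blocks by replicate number and 18S class, the choice of probe set, and leaving out each array. The fits within each 18S class were added after seeing the data. Figures were drawn with matplotlib 3.10.9.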

Additional observations from a re-analysis of the deposited data

Results flagged for a closer look

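In 5 of 102 groups of 5 arrays examined, over the named genes and the complex averages, 1 array stood far from the other 4 of its group; chance gives about 5%. Each value is set against the nearest array of the same group. Among the CLP arrays, Atp5a1 was lowest on CLP 4, at a log2 signal of 11.99 against 12.35, and Ndufs7 was lowest on the same array, at 10.77 against 10.88. Ndufb4 was highest on CLP 4, at 7.56 against 6.85, which touches its difference of 0.40 between the groups. Ndufs4 was highest on CLP 2, at 10.05 against 9.46. Among the sham arrays, Atp5c1 was highest on sham 3, at 12.20 against 12.03.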

How the results depend on the processing

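No respiratory chain or ATP synthase gene passed the threshold in any of 24 other settings. With each gene by the probe set that represents it, the smallest limma adjusted p among them was 0.193. The dimmer probe set of Ndufaf4 had a limma adjusted p of 0.0589 with the 18S class as a block. The count of these genes with an interval within 1.5-fold ran from 55 to 86, and the median over all of them from -0.04 to 0.04. All genes past the threshold numbered 98, but 355 with the 18S class as a block, 247 with array weights, 1 with no filter, 0 within either 18S class and 2 to 248 when 1 array was left out (2 without sham 3, 248 without CLP 1). At an unadjusted p under 0.05 there were 2 of the 86 genes, and 4 with array weights, 1 with the 60th percentile filter, the 40th percentile floor or trended robust variance, 0 within the high 18S class, 0 with the replicate number as a block and 0 to 4 without 1 array. Beyond 1.2-fold there was 1, and 2 with array weights or no scaling, 3 with probe sets averaged or quantile normalization, 0 with that filter or floor, 7 within the low 18S class and 1 to 3 without 1 array. Among assembly and insertion factors 1 passed with the 18S class block, array weights and the replicate block, and 0 to 1 without 1 array; among mitochondrial ribosomal proteins 2 passed with the 18S class block and 0 to 1 without 1 array. Of the 86 genes, 12 had the opposite sign within the low 18S class and 13 of 85 within the high; of the named ones, Cox6a2 (-0.013) and Cox6b1 (-0.086), both in the low class, moved by more than their SD between mice. Ndufab1 (0.15) and Atp5c1 (0.14) did so without x_at and s_at probe sets. The cause of these shifts was not tested.

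Equal replicate numbers were not taken as pairs. The correlations of same-numbered arrays were 0.18, 0.58, 0.38, 0.18 and 0.06, and only CLP 2 correlated best with its own number. Numbers 2 and 4 were the arrays of low 18S signal in both groups. The replicate number thus follows the 18S class, and these correlations cannot decide whether the arrays were paired. The replicate block moved no respiratory chain gene past the threshold.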
